A study of Mus musculus with 12 samples.

Results

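The transcripts of 9 genes of the Notch pathway were followed through 3 successive stages of early T-cell development in the mouse thymus. They comprise the receptors Notch1, Notch2 and Notch3, the nuclear partners Rbpj and Maml1, and the targets Dtx1, Nrarp, Hes1 and Hey1. A probe set was taken when its only gene symbol in the array's annotation was one of these names, which gave 18 of the 34945 probe sets with 1 symbol and 9 of 18193 genes. All 9 genes passed the filter on low signal through at least 1 probe set, as did 16 of the 18 probe sets. Stages were labelled DN2 (CD44+CD25+), DN3 (CD44-CD25+) and DN4 (CD44-CD25-), each with 4 Affymetrix Mouse Genome 430 2.0 arrays. The mice were female C57BL/6 animals, 5 to 6 weeks of age. In each of 4 sorts, thymocytes of 4 mice were pooled, so that 16 mice entered the study, and the 3 stages of a sort came from the same pool. CD4+ and CD8+ cells were depleted magnetically, and the sorted cells were negative for CD4, CD8, CD3, NK1.1 and TCR gamma-delta. The DN4 gate was therefore set by the absence of every stain.

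Notch receptors are surface proteins that are cut when a ligand on a neighbouring cell binds them, which frees an intracellular domain. In the nucleus this domain joins the DNA-binding protein RBPJ and a Mastermind coactivator such as MAML1, and RBPJ changes from a repressor into an activator. In the thymus, Notch1 signals commit progenitors to the T lineage, and they are needed up to beta-selection, the checkpoint for the pre-T-cell receptor that cells pass between DN3 and DN4.

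The promoters of the 5 members called in at least 1 comparison are shown because these genes carry the differences described here. Each is the stretch of 250 bases before the RefSeq start in GRCm38.p6, written 5′ to 3′ on the gene's strand. The windows are chr2:26503823-26504072 on the minus strand for Notch1, chr17:32166891-32167140 on the minus strand for Notch3, chr5:53590096-53590345 on the plus strand for Rbpj, chr5:120711670-120711919 on the minus strand for Dtx1 and chr2:25180508-25180757 on the plus strand for Nrarp. Capitals mark TGGGAA on either strand, the core of the sequence that RBPJ binds, and CANNTG, the E-box bound by basic helix-loop-helix proteins.
Notch1: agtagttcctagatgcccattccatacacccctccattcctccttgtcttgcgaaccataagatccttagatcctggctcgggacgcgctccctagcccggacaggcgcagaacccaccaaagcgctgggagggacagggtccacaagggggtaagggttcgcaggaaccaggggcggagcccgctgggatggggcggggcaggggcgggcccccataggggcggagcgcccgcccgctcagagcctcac
Notch3: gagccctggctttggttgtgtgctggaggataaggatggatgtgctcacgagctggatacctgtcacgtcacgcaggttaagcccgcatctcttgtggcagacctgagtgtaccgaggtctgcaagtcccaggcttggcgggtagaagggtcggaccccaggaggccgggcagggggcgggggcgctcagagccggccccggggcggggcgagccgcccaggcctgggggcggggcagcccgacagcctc
Rbpj: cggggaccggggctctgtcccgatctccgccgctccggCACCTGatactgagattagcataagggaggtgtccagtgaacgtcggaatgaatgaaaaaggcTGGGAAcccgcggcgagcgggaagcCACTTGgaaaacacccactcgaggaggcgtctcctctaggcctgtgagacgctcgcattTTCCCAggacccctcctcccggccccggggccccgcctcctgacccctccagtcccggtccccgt
Dtx1: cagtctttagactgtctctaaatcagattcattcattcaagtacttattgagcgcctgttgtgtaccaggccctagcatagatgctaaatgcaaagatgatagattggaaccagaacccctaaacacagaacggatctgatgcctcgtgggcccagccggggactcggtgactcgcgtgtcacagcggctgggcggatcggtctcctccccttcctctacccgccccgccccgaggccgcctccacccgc
Nrarp: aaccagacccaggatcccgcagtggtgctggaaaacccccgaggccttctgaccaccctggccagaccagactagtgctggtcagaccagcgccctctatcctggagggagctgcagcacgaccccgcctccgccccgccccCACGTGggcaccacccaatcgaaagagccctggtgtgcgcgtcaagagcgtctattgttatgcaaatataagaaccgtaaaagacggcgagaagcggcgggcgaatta
The targets Hes1 and Hey1 had no entry in the promoter table, so their promoters were not searched. Of the 9 members, 7 had an entry, with 8 windows, since Rbpj had more than 1 start. TGGGAA occurred in 2 of these windows, both of Rbpj. The Rbpj windows overlap, and the match in the one not shown is a site also present in the one shown. In the Rbpj window shown TGGGAA began 149 and 65 bases before the start, the nearer copy on the opposite strand and shared by both windows. CANNTG occurred in that window, 212 and 124 bases before the start, and in the Nrarp window 108 bases before it. Among all 32851 windows of this length, 21.6% held TGGGAA and 66.2% held CANNTG. The motifs can share bases, and none of the matches shown does. A match describes the letters in these windows only.

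Signals below are the deposited probe set intensities after quantile normalization of the 12 arrays. Changes are differences of log2(signal + 5.69), given with the standard error, and were tested with limma. P-values of genes were adjusted over the 11168 genes above the filter, and a gene was called where its adjusted p was under 0.05. Single probe sets were tested in a separate fit and adjusted over 20357 probe sets. Values of different probe sets have no common scale, so no gene's signal is set against another's. Sorted populations were measured in bulk, so fewer cells carrying a transcript and less of it per cell cannot be told apart. The sorting markers followed the labels: Cd44 had a mean signal of 725 in DN2, 49.5 in DN3 and 47.1 in DN4, and Il2ra, which encodes CD25, averaged 2358 in DN2, 1414 in DN3 and 119.8 in DN4. Arrays correlated at 0.969 to 0.985 within a stage. Median deposited signals were lower on the DN4 arrays, at 15.2 to 18.1, than on the DN3 arrays, at 19.8 to 25.8, while the DN2 arrays spanned 16.7 to 28.1. The log2 ratio of 3′ to 5′ Gapdh signal, a measure of RNA quality, averaged 1.39 ± 0.32 over the DN2 arrays, 1.04 ± 0.17 over the DN3 arrays and 1.16 ± 0.21 over the DN4 arrays (SD, n = 4 each). Markers of other cells also moved with stage. The summed myeloid markers, 4 of 7 above the filter, ranged from 395 to 638 in DN2, 148 to 213 in DN3 and 91.2 to 160 in DN4. Among them Lyz2 and Mpo were called lower in DN3 than in DN2, while Csf1r and Adgre1 were not called between any stages. The mast cell sum, in which Cpa3 alone of 4 markers was above the filter, ranged from 2730 to 3779 in DN2, 74.5 to 224 in DN3 and 29 to 67.2 in DN4. The natural killer cell sum, 2 of 4 above the filter, ranged from 1580 to 1819 in DN2, 374 to 716 in DN3 and 81.4 to 117 in DN4. Nkg7 carried this sum, at a mean of 1642 in DN2, 550 in DN3 and 70.1 in DN4, while Ncr1 and Il2rb were below the filter. The dendritic cell sum, 4 of 6 above the filter, ranged from 318 to 718 in DN2, 182 to 331 in DN3 and 238 to 859 in DN4. Its markers differed: Itgax was called lower in DN3 than in DN2, and Cd74 was called higher in DN4 than in DN3. The thymic epithelium and stroma sum, 5 of 8 above the filter, ranged from 243 to 352 in DN2, 511 to 703 in DN3 and 282 to 360 in DN4, highest in DN3 without overlap, as Dtx1 and Notch3 were. Epcam carried it, at a mean of 179.6 in DN2, 475 in DN3 and 145 in DN4, and it was called higher in DN3 than in DN2 (1.48 ± 0.31, adjusted p = 0.00803) and lower in DN4 than in DN3 (-1.67 ± 0.31, adjusted p = 0.00368). Krt8 ran the other way, at a mean of 16.0 in DN2, 9.76 in DN3 and 33.9 in DN4. It was called higher in DN4 than in DN3 (1.37 ± 0.40, adjusted p = 0.0358). Krt5 (26.0, 26.1 and 25.4) and Ccl25 (37.7, 57.8 and 56.7) were not called between any stages. Foxn1, which defines thymic epithelium, averaged 18.6 in DN2, 13.3 in DN3 and 16.2 in DN4 and was not called between them. Krt14, Col1a1 and Pdgfra were below the filter. The part of these cells, of RNA quality and of array brightness in the differences below was not tested.

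**Figure D1:**
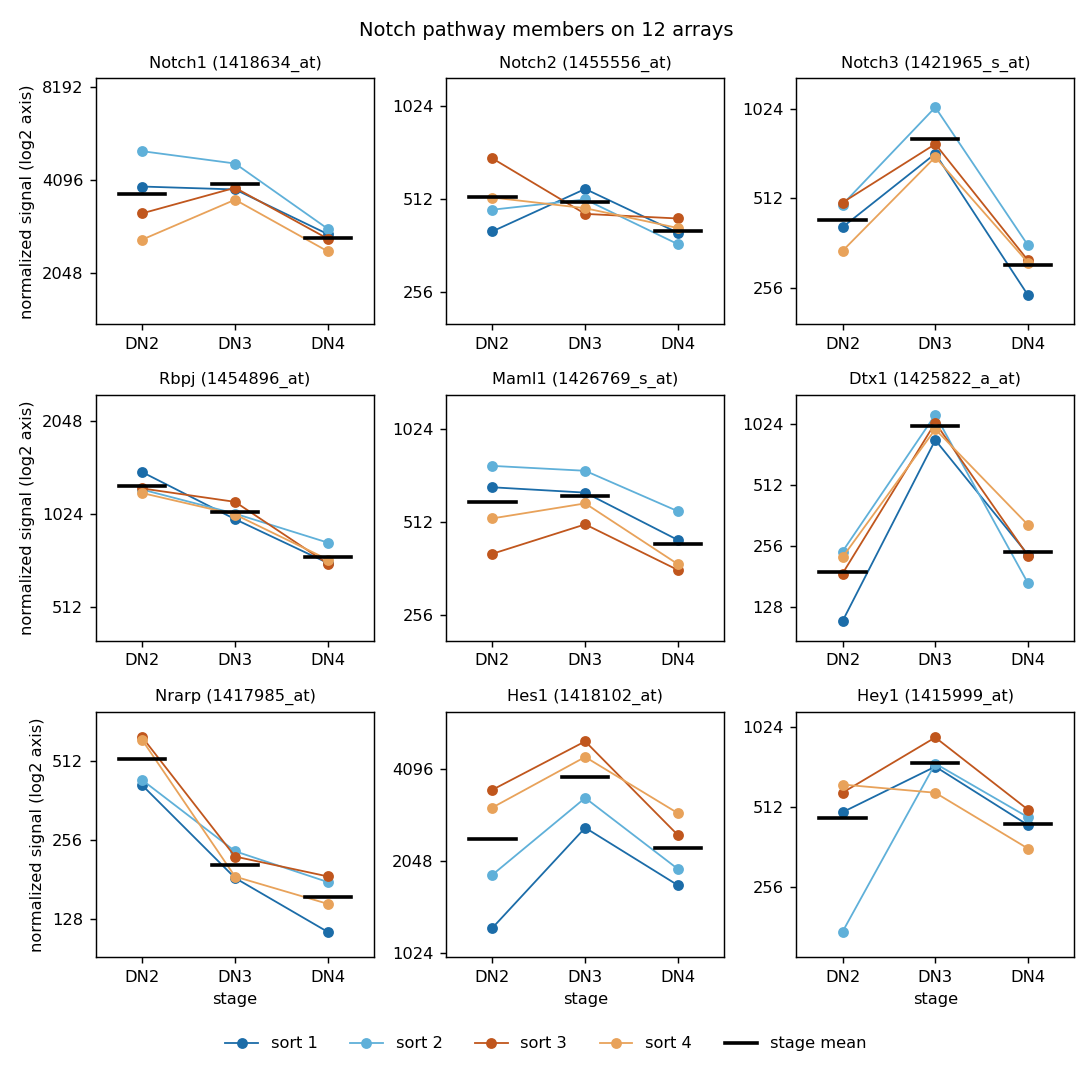
Normalized signal of each of the 9 genes (probe set of highest mean signal, log axis) on every array in DN2, DN3 and DN4, with lines joining the arrays of a sort. Dtx1 and Notch3 peak in DN3, Nrarp is highest in DN2, and all 9 genes are lower in DN4 than in DN3 in each sort.

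Notch3 was the receptor with the greatest differences between stages. Its signal was 409, 488, 495 and 341 in sorts 1 to 4 of DN2, 722, 1034, 778 and 704 in DN3, and 242, 355, 316 and 311 in DN4. Every DN3 array lay above every array of the other stages. Notch3 was higher in DN3 than in DN2 by 0.89 ± 0.17 on the log2 scale (1.86-fold, adjusted p = 0.00514). It was lower in DN4 than in DN3 by 2.61-fold (log2 change -1.38 ± 0.17, adjusted p = 0.000338). DN4 was also below DN2, with a log2 change of -0.49 ± 0.17 (adjusted p = 0.0417), and these groups overlapped. That last call ended without any 1 of DN2 replicates 1, 2 and 3, DN3 replicate 3 or DN4 replicates 1, 3 and 4, where the adjusted p was 0.054 to 0.112.

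Notch1, the receptor required for T-lineage commitment, was bright at every stage. Its signal was 3911, 5090, 3203 and 2633 in sorts 1 to 4 of DN2, 3827, 4643, 3875 and 3545 in DN3, and 2742, 2852, 2649 and 2411 in DN4. The DN2 and DN3 arrays overlapped, while all DN4 arrays lay below all DN3 arrays. Between DN3 and DN2 the log2 change was 0.13 (95% interval -0.25 to 0.52, adjusted p = 0.707). Notch1 was lower in DN4 than in DN3, with a log2 change of -0.57 ± 0.18 (adjusted p = 0.0477, and 0.00856 when arrays were paired by sort). Without any 1 DN3 or DN4 array, or without DN2 replicate 1 or 3, that adjusted p was 0.0524 to 0.127. DN4 against DN2 gave -0.44 ± 0.18, with an adjusted p of 0.0774, or 0.0159 in the paired fit and 0.0173 without DN2 replicate 4. Without DN2 replicate 2 that change was -0.27 (adjusted p = 0.196).

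Notch2, a receptor best known in marginal zone B cells, varied least of the 3. Its signal was 401, 472, 692 and 517 in sorts 1 to 4 of DN2, 551, 509, 457 and 477 in DN3, and 397, 365, 442 and 412 in DN4. The DN3 arrays lay within the range of DN2, and all DN4 arrays lay below all DN3 arrays. The log2 change was -0.04 in DN3 against DN2 (95% interval -0.37 to 0.30, adjusted p = 0.921) and -0.30 in DN4 against DN3 (95% interval -0.63 to 0.03, adjusted p = 0.199). In DN4 against DN2 it was -0.34 ± 0.15 (adjusted p = 0.107). It was -0.45 without DN2 replicate 1 (adjusted p = 0.0345) and -0.19 without DN2 replicate 3 (adjusted p = 0.278).

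Rbpj, the DNA-binding partner, stepped down along the series by the probe set that represents it, 1454896_at, and not by its others. Its signal was 1401, 1230, 1241 and 1199 in sorts 1 to 4 of DN2, 986, 1028, 1123 and 1021 in DN3, and 711, 828, 708 and 730.1 in DN4. No array of one stage overlapped those of another. Rbpj was lower in DN4 than in DN3 (log2 change -0.48 ± 0.10, adjusted p = 0.00772) and lower in DN4 than in DN2 by 1.70-fold (log2 change -0.76 ± 0.10, adjusted p = 0.000133). The first step, DN3 against DN2, was -0.28 ± 0.10 and missed the threshold (adjusted p = 0.0972). The other Rbpj probe sets gave smaller changes in DN4 against DN3. Probe set 1448957_at gave 0.18 ± 0.14 (adjusted p = 0.413) and 1418114_at gave -0.25 ± 0.25 (adjusted p = 0.554), and with the mean of the 3 probe sets the change was -0.18 (adjusted p = 0.357). In DN4 against DN2 these probe sets gave -0.16 ± 0.14 (adjusted p = 0.41) and -0.19 ± 0.25 (adjusted p = 0.604), and the mean of the 3 gave -0.37 (adjusted p = 0.0394). For DN3 against DN2, 1448957_at gave -0.34 ± 0.14 (adjusted p = 0.16) and 1418114_at gave 0.06 ± 0.25 (adjusted p = 0.93).

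Maml1, the coactivator, had signals of 663, 777, 404 and 525 in sorts 1 to 4 of DN2, 637, 749, 503 and 588 in DN3, and 447, 554, 358 and 373 in DN4. At each stage sorts 1 and 2 lay above sorts 3 and 4, and the stages overlapped. DN3 against DN2 gave 0.09 (95% interval -0.37 to 0.55, adjusted p = 0.849). DN4 against DN3 gave -0.52 ± 0.21, with an adjusted p of 0.115, or 0.00411 in the paired fit. DN4 against DN2 gave -0.43 ± 0.21, with an adjusted p of 0.138, or 0.00501 in the paired fit. It was -0.60 without DN2 replicate 3 (adjusted p = 0.0389) and -0.28 without DN2 replicate 2 (adjusted p = 0.325). A further Maml1 probe set, 1452188_at, gave 0.02 ± 0.23 in DN4 against DN3 (adjusted p = 0.976).

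Dtx1, which encodes the ubiquitin ligase Deltex 1, had the greatest change of the 9 genes at each successive step, by the probe sets that represent them. Its signal was 109, 240.3, 187 and 225 in sorts 1 to 4 of DN2, 849, 1130, 1033 and 959.9 in DN3, and 232, 168, 229 and 325 in DN4. The DN3 arrays stood apart from both other stages, which overlapped each other. Dtx1 was higher in DN3 than in DN2 by 5.27-fold (log2 change 2.40 ± 0.24, adjusted p = 5.82e-05) and lower in DN4 than in DN3 by 4.18-fold (log2 change -2.06 ± 0.24, adjusted p = 0.000267). DN4 against DN2 gave 0.33 (95% interval -0.19 to 0.86, adjusted p = 0.313). The dimmer Dtx1 probe set 1458643_at read 1.14, 1.75, 3.56 and 2.46 in DN2, 25.1, 31.1, 21.3 and 20.9 in DN3, and 31.8, 17.5, 34.8 and 22.6 in DN4. It lay near the filter level of 20.6 in DN3 and DN4 and far below it in DN2, and it passed the filter through 7 arrays, none of them DN2. Its difference from DN2 follows from that and supports nothing about Dtx1. It gave 0.07 ± 0.19 in DN4 against DN3 (adjusted p = 0.834), and with both probe sets averaged that change was -0.995 (adjusted p = 0.00327).

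Nrarp, which encodes a small ankyrin-repeat protein that limits Notch signalling as a feedback inhibitor, ran the other way at the first step. Its signal was 413, 432, 628 and 613 in sorts 1 to 4 of DN2, 184, 232, 221 and 186 in DN3, and 114, 177, 186 and 146 in DN4. All DN2 arrays lay above all others, while DN3 and DN4 overlapped. Nrarp was lower in DN3 than in DN2 by 2.46-fold (log2 change -1.30 ± 0.19, adjusted p = 0.000783) and lower in DN4 than in DN2 by 3.25-fold (log2 change -1.70 ± 0.19, adjusted p = 3.19e-05). DN4 against DN3 was -0.40 ± 0.19 (adjusted p = 0.161). Probe set 1417986_at of Nrarp gave -0.61 ± 0.25 in DN3 against DN2 (adjusted p = 0.176) and -0.93 ± 0.25 in DN4 against DN2 (adjusted p = 0.0159).

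Hes1, a basic helix-loop-helix repressor and a classic Notch target, had signals of 1241, 1851, 3512 and 3072 in sorts 1 to 4 of DN2, 2638, 3302, 5058 and 4497 in DN3, and 1710, 1933, 2495 and 2943 in DN4. Sorts 3 and 4 lay above sorts 1 and 2 at every stage, and the stages overlapped. Within each sort DN3 was above both other stages. Hes1 changed by 0.75 ± 0.32 in DN3 against DN2 (adjusted p = 0.172, and 0.00677 in the paired fit). Without DN2 replicate 1 that change was 0.47 (adjusted p = 0.384). In DN4 against DN3 it changed by -0.76 ± 0.32 (adjusted p = 0.129, and 0.00517 in the paired fit). DN4 against DN2 gave -0.01 (95% interval -0.71 to 0.69, adjusted p = 0.989).

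Hey1, a related repressor, had signals of 490.2, 174, 581 and 623 in sorts 1 to 4 of DN2, 728, 748, 938 and 581 in DN3, and 438, 469, 501 and 357 in DN4. DN2 replicate 2 was low, DN2 and DN3 overlapped, and all DN4 arrays lay below all DN3 arrays. DN3 against DN2 gave 0.81 ± 0.33 (adjusted p = 0.153) and DN4 against DN3 gave -0.75 ± 0.33 (adjusted p = 0.146). Without DN2 replicate 2 the adjusted p of DN4 against DN3 was 0.0108, at the same change of -0.75. The same omission gave 0.39 in DN3 against DN2 (adjusted p = 0.213) and -0.36 in DN4 against DN2 (adjusted p = 0.146). With all arrays, DN4 against DN2 gave 0.06 (95% interval -0.66 to 0.78, adjusted p = 0.905).

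**Figure D2:**
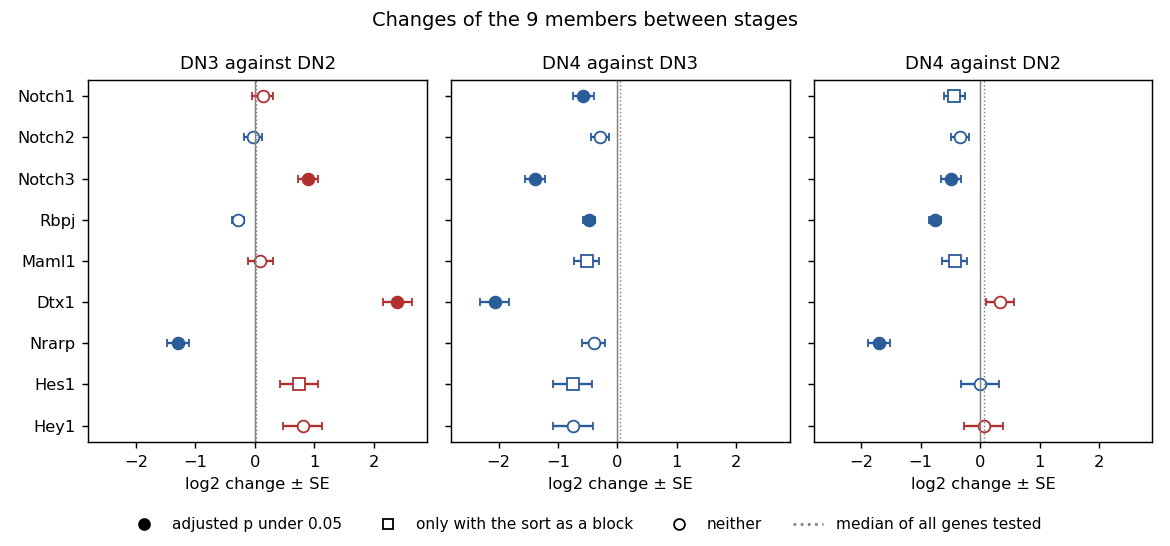
Log2 change of each of the 9 genes in DN3 against DN2, DN4 against DN3 and DN4 against DN2, as points with the standard error. Filled circles mark adjusted p under 0.05, squares a call in the paired fit alone, and the dotted line the median of all genes. Dtx1 and Notch3 are higher at the first step and lower at the second, Nrarp is lower at the first, and every gene is below 0 in DN4 against DN3.

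Counted over the 9 genes, DN3 against DN2 had 2 called higher (Notch3 and Dtx1) and 1 called lower (Nrarp), where 11.2% of all genes tested were called, 4.76% higher and 6.45% lower. The targets spanned -1.30 (Nrarp) to 2.40 (Dtx1), with a median of 0.78, and the receptors spanned -0.04 to 0.89, with a median of 0.13. The targets' median was 0.52 without DN2 replicate 2 and 0.97 without DN2 replicate 3. Rbpj and Maml1 had a median of -0.10, and the median of all genes was 0.02. The 4 targets thus did not share a direction at this step: Dtx1 and Hes1 were higher in all 4 sorts and Nrarp was lower in all 4. Of all genes tested, 21.1% were higher in all 4 sorts and 20.3% were lower. Notch3 and Dtx1 were higher without overlap of the groups, against 8.09% of all genes, and Rbpj and Nrarp were lower without overlap, against 9.34%. In the paired fit Hes1 was called higher as well, 4 genes in all, where 20.8% of all genes were called.

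In DN4 against DN3, 4 of the 9 genes were called, all lower (Notch1, Notch3, Rbpj and Dtx1), where 16.2% of all genes were called, 7.19% higher and 9.02% lower. In the paired fit Maml1 and Hes1 were called lower as well, 6 genes in all, where 30.2% of all genes were called and 14.8% were called lower. All 36 differences within sorts were below 0, so that each of the 9 genes was lower in all 4 sorts, as were 23.4% of all genes tested. Groups did not overlap for 6 of the 9 genes, against 11.5% of all genes that were lower without overlap. Medians were -0.57 for the receptors, -0.50 for Rbpj and Maml1, -0.75 for the targets and 0.05 for all genes. The 36 differences were also all below 0 with each array centred on its median and with no normalization between arrays. These scalings moved the median of all genes to -0.09 and -0.41, and the 9 genes lay below it under both. Both scalings thus shifted all genes downward here. The share of all genes lower in all 4 sorts was counted after quantile normalization only, so these repeats have no such share beside them. The choice of probe sets turned some signs. Notch2 changed by 0.10 with its probe sets averaged, which took in 1451889_at, above the filter level on 1 array only. Maml1 changed by 0.02 with probe sets ending in _s_at or _x_at left out. Single probe sets of Rbpj and Dtx1 gave 0.18 and 0.07, as above. The receptors and the targets thus shared a direction at this step with the representing probe sets, and the difference between the roles was not tested.

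In DN4 against DN2, 3 of the 9 genes were called, all lower (Notch3, Rbpj and Nrarp), where 34.7% of all genes were called and 16.7% were called lower. In the paired fit Notch1 and Maml1 were called lower too, 5 genes in all, where 46.8% of all genes were called and 21.9% were called lower. Their other probe sets above the filter did not fall. In this comparison 1418633_at of Notch1 gave 0.02 ± 0.17 (adjusted p = 0.945, and 0.893 in the paired fit). For Maml1, 1452188_at gave 0.10 ± 0.23 (adjusted p = 0.784, and 0.615 in the paired fit). Lower in all 4 sorts were 6 of the 9 genes, against 26.1% of all genes, and Rbpj and Nrarp were lower without overlap, against 15.6%. No gene among the 9 was called higher, where 17.9% of all genes were. The median was -0.44 for the receptors, -0.59 for Rbpj and Maml1, 0.03 for the targets and 0.06 for all genes. The targets' median ranged from -0.23 without DN2 replicate 2 to 0.21 without DN2 replicate 3. Among the targets, Nrarp alone was called, while Dtx1, Hes1 and Hey1 had intervals that included 0. The 3 comparisons share arrays, DN3 being the numerator of one and the denominator of another, so their values stand side by side and were not correlated.

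**Figure D3:**
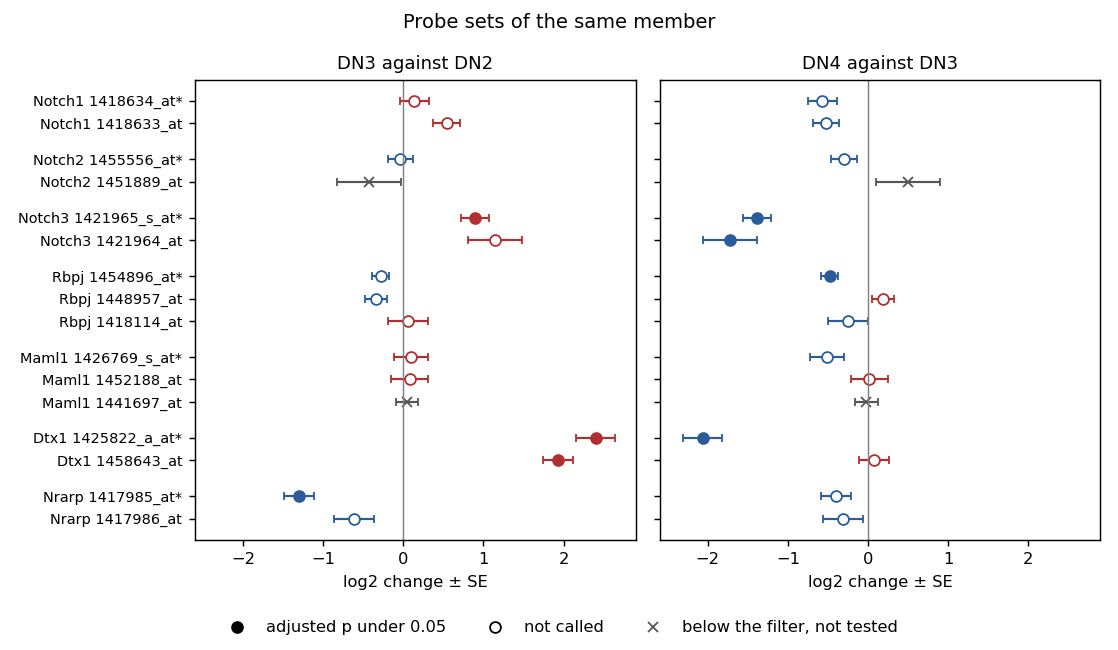
Log2 change with its standard error in DN3 against DN2 and DN4 against DN3 for the probe sets of the 7 members with more than 1, each tested by itself, with an asterisk at the one that represents the gene and crosses for those below the filter. Dtx1 1458643_at was below the filter level on every DN2 array, so its point in DN3 against DN2 gives no size. The probe sets of Notch3 run together, while those of Dtx1, Rbpj and Maml1 differ in DN4 against DN3.

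Over single probe sets, 3 of the 16 tested were called higher and 1 lower in DN3 against DN2, where 8.01% of all probe sets were called. In DN4 against DN3, 4 were called lower and 0 higher (12.5% of all probe sets), and in DN4 against DN2, 3 were called lower and 1 higher (29.9%). These counts of higher calls against DN2 each include Dtx1 1458643_at, which was below the filter level on every DN2 array and was tested through its DN3 and DN4 arrays. The dimmer Notch3 probe set 1421964_at gave 1.14 ± 0.34 in DN3 against DN2 (adjusted p = 0.0574, and 0.00834 in the paired fit) and -1.72 ± 0.34 in DN4 against DN3 (adjusted p = 0.00651). The dimmer Notch1 probe set 1418633_at gave 0.54 ± 0.17 in DN3 against DN2 (adjusted p = 0.0689, and 0.00776 in the paired fit) and -0.52 ± 0.17 in DN4 against DN3 (adjusted p = 0.0601, and 0.00681 in the paired fit). By this Notch1 probe set DN3 lay above DN4 without overlap and overlapped DN2 on 1 array, at 773, 708, 698 and 566, with DN2 at 574, 526, 435 and 359 and DN4 at 544, 441, 510.1 and 407. In the fit of single probe sets, 1418634_at, which represents Notch1, had an adjusted p of 0.0599 in DN4 against DN3 and was not called. The 2 probe sets below the filter, 1451889_at of Notch2 and 1441697_at of Maml1, were not tested.

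Other genes of the pathway, 73 in 7 lists with 63 above the filter, were set beside the members. In DN3 against DN2, 4 were called higher and 3 lower, 11.1% of those tested, against 11.2% of all genes. In DN4 against DN3, 4 were called higher and 14 lower (28.6%, against 16.2% of all genes). In DN4 against DN2, 9 were called higher and 18 lower (42.9%, against 34.7% of all genes). The lower calls in DN4 against DN3 and in DN4 against DN2 include Il2ra, whose fall was set by the CD25 gate.

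Of the 7 other receptors and ligands, Dll1, Dll4 and Jag2 were above the filter and Notch4, Dll3, Jag1 and Dlk1 were below it. Of the 3 above the filter Jag2 alone was called, lower in DN4 than in DN2 (log2 change -1.24 ± 0.37, adjusted p = 0.0214), where 16.7% of all genes were called lower. Its mean signal was 28.2 in DN4, against 64.2 in DN2. Of 13 genes of receptor cutting and glycosylation, 1 was called in DN3 against DN2, where 11.2% of all genes were called. It was Psenen, a subunit of gamma-secretase, which was lower in DN3 (-0.49 ± 0.10, adjusted p = 0.00909). None of the 13 was called in DN4 against DN3, where 16.2% of all genes were. In DN4 against DN2, Mfng, a Fringe glycosyltransferase, was higher (0.60 ± 0.17, adjusted p = 0.0182), and Psen2 (-0.50 ± 0.11, adjusted p = 0.00434) and Furin (-0.50 ± 0.18, adjusted p = 0.0485) were lower. That made 1 higher and 2 lower of 13, where 17.9% of all genes were called higher and 16.7% lower.

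Among 12 ubiquitin ligases and adaptors, 4 were called lower and 1 higher in DN4 against DN3, where 9.02% of all genes were called lower and 7.19% higher. The list's median change was -0.33, against 0.05 for all genes. Dtx4, a relative of Dtx1, read 5.19 to 17.6 in DN4, below the filter level on every array, against 149 to 187 in DN3. With the DN4 arrays set to the filter level it was at least 6.34-fold lower in DN4 than in DN3, a bound that was not tested. Its call (adjusted p = 5.91e-06) came from the limma fit on the values as measured. Dtx4 was not called in DN3 against DN2, where it averaged 161 in DN3 and 188 in DN2. Dtx3l (-0.66) was also lower in DN4 than in DN3, and Dtx2 was higher (0.47 ± 0.12, adjusted p = 0.0198). Mib1 (-0.51) and Mib2 (-0.67), ligases that act in the cell presenting the ligand, complete the count and were named after their values were seen. Nedd4 was lower in DN4 than in DN2 (-0.69 ± 0.16, adjusted p = 0.00587). The acetyltransferases Kat2b (-0.74), Crebbp (-0.43) and Ep300 (-0.35), coactivators of the nuclear complex, were called lower in DN4 than in DN3, 3 of 7 tested coactivators with 0 higher, where 9.02% of all genes were called lower. The median change of the 7 was 0.03. Of 12 corepressors, Tle4 (-0.73), Kdm5a (-0.69) and Tle3 (-0.53) were called lower in the same comparison and 0 were called higher, with a list median of -0.17. Tle4 was also lower in DN3 than in DN2 (-0.73 ± 0.19, adjusted p = 0.0245). L3mbtl2 was higher in DN3 than in DN2 (0.67 ± 0.15, adjusted p = 0.012), and the coactivator Cdk8 was higher in DN4 than in DN2 (0.32 ± 0.11, adjusted p = 0.0416).

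The 12 other reported targets in T-lineage cells went in both directions. Il2ra (-3.56), Cdkn1a (-2.63) and Nfkb2 (-1.22) were called lower in DN4 against DN3, and Trib2 (0.76), Skp2 (0.68) and Ccnd3 (0.53) were called higher, 3 of 12 in each direction, where 9.02% of all genes were called lower and 7.19% higher. Il2ra encodes CD25, by which DN3 and DN4 were sorted, so its difference was set by the gate and is no result about a target. Nfkb2, Skp2 and Ccnd3 were named after their values were seen, to complete these counts. In DN3 against DN2, 3 of these 12 were called higher and 1 lower, where 4.76% and 6.45% of all genes were. Trib2 (1.40 ± 0.17, adjusted p = 2e-04) and Gata3 (0.64 ± 0.19, adjusted p = 0.0496) were higher, and Il2ra was lower (-0.74 ± 0.22, adjusted p = 0.0492). Gata3 was also named after its values were seen. Ptcra, which encodes the pre-T-cell receptor alpha chain, was higher in DN3 than in DN2 as well (2.46 ± 0.36, adjusted p = 0.001). It changed by -0.98 ± 0.36 in DN4 against DN3 (adjusted p = 0.087, and 0.00159 in the paired fit). Of the HES and HEY family outside the members, 4 of 9 were above the filter. Of these 4, Bhlhe40 alone was called, lower in DN4 than in DN3 (-1.91 ± 0.55, adjusted p = 0.0354), where 9.02% of all genes were called lower. It was also lower in DN4 than in DN2 (-2.90 ± 0.55, adjusted p = 0.00179), where 16.7% of all genes were called lower.

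**Figure D4:**
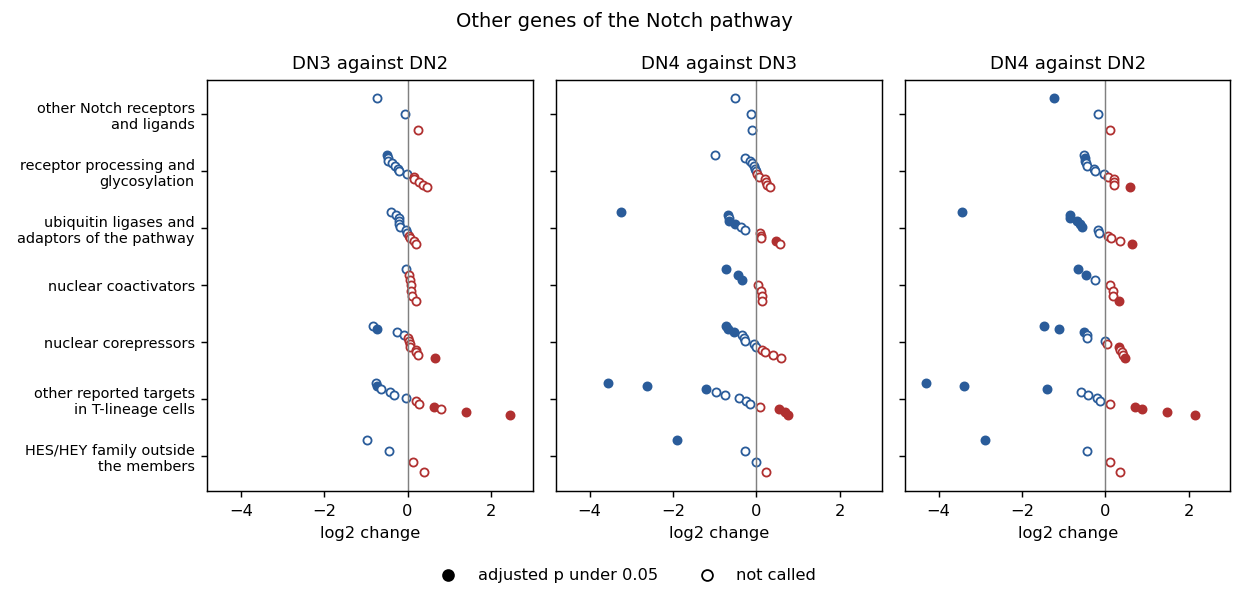
Log2 change of each pathway gene outside the 9 members that was above the filter, by list, in DN3 against DN2, DN4 against DN3 and DN4 against DN2, with filled points for called genes. Cdkn1a lies at -2.63 in DN4 against DN3. The point of Dtx4, below the filter level in DN4, gives no exact size, and Il2ra was set by the sorting gate.

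Genes whose pattern over the 12 arrays was most like that of a called member were found by the root mean square difference of log2 levels, each gene centred on its own mean, among 10659 genes. For Notch3 they were Traf4 (0.166), Zfp658 (0.206) and Nipal1 (0.219), where the median gene differed from Notch3 by 0.703. For Rbpj they were Tm9sf2 (0.0835), Arih2 (0.0959) and Vamp3 (0.116), and for Notch1 Fam193b (0.113), N4bp2 (0.114) and Csnk1d (0.115). Nrarp was nearest to Map3k20 (0.203), Prelid2 (0.211) and Gpr146 (0.223). For Dtx1 they were Fam43a (0.508), Vwce (0.508) and Fbln2 (0.511), where the median gene differed from Dtx1 by 1.15.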

How the data were processed

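The deposited intensity of a probe set is a linear signal from GCOS, the Affymetrix array software, per the submitters' processing notes. Neither the software's version nor its algorithm or scaling is given here. RNA was purified on columns and amplified in repeated cDNA synthesis, per the labels' protocols. Stages and sort numbers came from the labels, all columns were mapped, and 0 were left out.

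Of 45101 probe sets, 64 were controls, 932 had several symbols and 9211 had none in the annotation given. Symbols were updated to the RefSeq annotation of GRCm38.p6. The deposited signals were quantile-normalized, because array means, trimmed by 2% per end, lay between 130 and 234, and log2 was taken after adding the 25th percentile (5.69). A gene was represented by its single-symbol probe set of highest mean signal. Genes above log2 4.71 on at least 4 arrays, 11168 in all, entered limma 3.58.1 under R 4.3.3 (two-sided, Benjamini-Hochberg adjustment, threshold 0.05), with 12 arrays sharing 1 estimate of spread. Intervals use the moderated degrees of freedom. Precision is limited by the number of arrays.

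The sort number pairs arrays, since the labels give the 3 stages of a sort 1 pool of cells. After the stage means were removed, arrays of the same sort correlated at 0.252 to 0.343, against -0.242 to 0.108 for arrays of different sorts. The fit without the block is the one reported, and the fit with it is an alternative, as are other scalings, offsets, filters, probe set rules, pairs of sorts and leaving out each array.

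Named genes were all members with every probe set, all other receptors and ligands, up to 4 called genes of each other list by adjusted p, and the 3 nearest genes in pattern. Members, lists and rules were chosen with earlier results of these data known. Tested on simulated data with 11168 genes, the fit recovered 22.4%, 70.1% and 90.9% of seeded log2 changes of 0.5, 1 and 2 in DN3 against DN2, and called 8 of 10968 unchanged genes. In DN4 against DN3 the shares were 14.9%, 65.7% and 92.4%. The simulated noise was independent between arrays, with no effect of the sort. At each size 66 or 67 genes were seeded, a smaller share than was called in the data. These rates therefore describe the simulated setting and need not hold for the data. Plots used Python 3.11.15, pandas 2.3.3 and matplotlib 3.10.9.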

Additional observations from a re-analysis of the deposited data

Results flagged for a closer look

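Of 48 groups of 4 arrays checked for an array far from the others, 1 stood out, where chance marks about 1 in 20. The dimmer Notch3 probe set 1421964_at read 18.8 on the DN2 array of sort 4, while the other DN2 arrays read 46.2 to 53.9. The brighter Notch3 probe set was lowest on the same array, at 341, without standing apart.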

How the results depend on the processing

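The changes of the 9 members and the counts of genes and members called were recomputed under 26 alternatives. No called change of a member turned its direction. Single probe sets, markers and other pathway genes were not recomputed. Dtx1 in DN3 against DN2, and Nrarp and Rbpj in DN4 against DN2, were called in all 26. Where every probe set was tested by itself, the change taken for a member was that of its representing probe set. Notch1 in DN4 against DN3 was called in 10 of 26 and Notch3 in DN4 against DN2 in 12 of 26. Dtx1 in DN4 against DN2 was called in 1 of 26, where its probe set below the filter level in DN2 was averaged in. With the sort number as a replicate block, genes called were 2321 in DN3 against DN2 (1252 without it) and 3377 in DN4 against DN3 (1810 without it), and members called in DN4 against DN2 were 5 (3 without it). Beyond the changes given for Notch1, Maml1 and Hes1, the block changed no call of a member. With no normalization between arrays, genes called were 605 in DN3 against DN2 and 2879 in DN4 against DN3, of which 40 were higher, and members called were 6 in DN4 against DN2 and 9 in DN4 against DN3. The share of calls that were higher was 42.5% in DN3 against DN2 and 44.4% in DN4 against DN3, against 54.7% and 14.5% with arrays centred on their median, and 48.6% and 1.39% with no normalization. In DN4 against DN2 it was 51.8%, against 43.3% and 9.47%. Without the filter, 1129 genes were called in DN4 against DN3, and with every probe set tested by itself 6089 were called in DN4 against DN2 (3870 genes otherwise). With fewer arrays, sorts 1 and 2 alone gave 251, 221 and 1831 genes called in DN3 against DN2, DN4 against DN3 and DN4 against DN2, and sorts 3 and 4 alone gave 409, 165 and 2220. Members called were 1 in DN3 against DN2 and 0 in DN4 against DN3 for sorts 1 and 2, where Dtx1 still changed by -2.28 (adjusted p = 0.0562), and 1 in DN4 against DN3 for sorts 3 and 4. Leaving out 1 array at a time gave 959 to 1259 genes in DN3 against DN2, 1129 (without DN3 replicate 2) to 1929 in DN4 against DN3 and 3204 to 3831 in DN4 against DN2. Members called were then 3 throughout, 3 to 5 and 2 to 4.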
